A study of Drosophila melanogaster with 6 samples.

Results

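The gene zfh2 encodes a large transcription factor of Drosophila melanogaster that carries zinc fingers and homeodomains. It was represented by 2 of the 8448 cDNA clones on the arrays, or 4 of the 16896 spots. Its members were all clones to which the platform annotation gives the single symbol zfh2. The gene was chosen by its mean ratio between the lines, which lay furthest on the Kc167 side among the named genes, so that ratio is described here and not tested.

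As background, homeodomains and zinc fingers both bind DNA, and proteins that combine them regulate other genes. In flies, zfh2 is known for its expression in the embryonic nervous system and for roles in the wing hinge, the leg and progenitor cells of the adult gut. Its closest relatives in mammals are the factors ZFHX3 and ZFHX4.

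The study set RNA of untreated Kc167 cells against RNA of untreated SL2 cells on 6 arrays of spotted cDNA with 2 colours. Both are established lines from embryos with properties of blood cells; Kc167 is held to be female and SL2 male in origin. Kc167 was cultured in Schneider medium containing 5% fetal bovine serum and SL2 in CCM3, both at 22 °C with gentamicin at 20 µg/mL, so line and medium cannot be told apart. Kc167 was labelled with Cy5 and SL2 with Cy3 on 3 arrays. The dyes were exchanged on 3 further arrays, called flipped. Arrays carrying the same number in both orientations were averaged, giving n = 3 replicates. The labels do not say that these came from separate cultures, so the spread and all p-values may reflect technical variation only. With 6 arrays, precision is limited.

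Values are log ratios taken as log2 of SL2 over Kc167, and a negative value is called the Kc167 side. The labels define neither the direction nor the base. The direction is likely because the titles name SL2 first; were it the other way, every sign below would turn. The data hold ratios only, with no intensities, so no level of zfh2 in either line and no signal over background is known. The 6 arrays had values for 15104 to 16844 spots. The flipped array of replicate 1 stood apart: it correlated across spots with the arrays of the other orientation at r = 0.61 to 0.69, against 0.74 to 0.79 for the other 2 flipped arrays.

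All 4 spots of zfh2 had a value on all 6 arrays, and all 24 values were negative. The clone at spots 3141 and 3142, called the first clone, had log2 ratios of -1.93, -2.30 and -1.74 where Kc167 carried Cy5 (replicates 1, 2 and 3). On the flipped arrays it had -2.17, -2.99 and -2.84. The clone at spots 15433 and 15434, called the second clone, had -4.38, -4.32 and -4.49 with Kc167 in Cy5. On the flipped arrays it had -4.24, -5.10 and -5.11. Both clones were most negative on the flipped arrays of replicates 2 and 3, and the ranges of the 2 clones did not overlap.

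**Figure D1:**
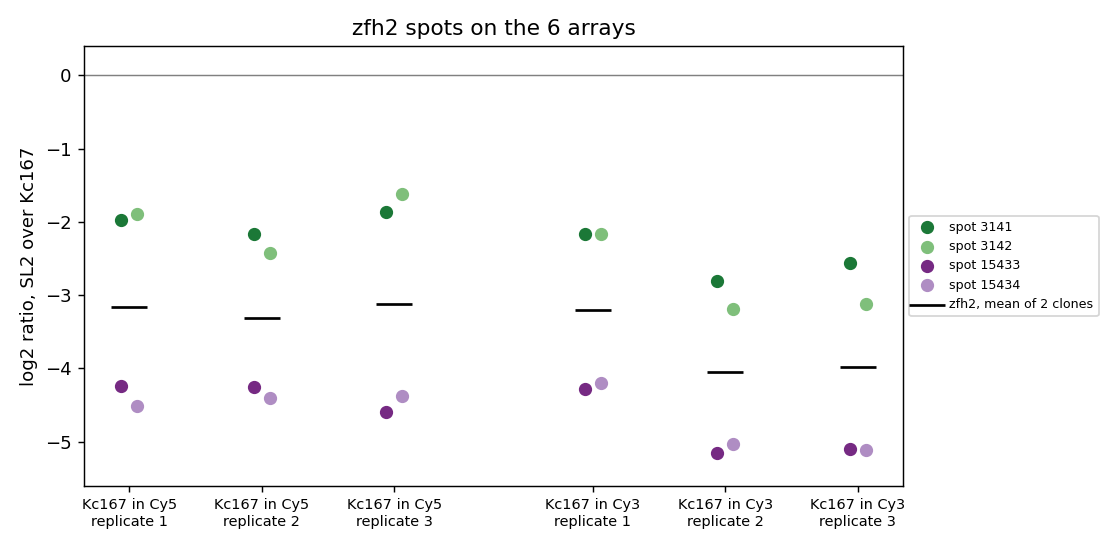
Log2 ratio of SL2 over Kc167 (vertical axis) for each of the 4 zfh2 spots on each of the 6 arrays (horizontal axis, by dye of Kc167 and replicate). Points are single spots, black bars are the mean of the 2 clones, and the line at 0 marks equal signal. The spots of the first clone (green) lie between -3.19 and -1.62 and those of the second clone (purple) between -5.16 and -4.20.

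The 2 spots of a clone, which carry consecutive numbers, gave nearly the same ratio. Their gap was 0.25 on average over the 6 arrays for the first clone (largest 0.56) and 0.14 for the second (largest 0.27). Averaged over replicates, spot 3141 had -2.26 and spot 3142 had -2.40, while spots 15433 and 15434 both had -4.61. The spots printed next to them did not share these ratios. Around the first clone, the adjacent clones of TfIIEbeta and CG17187 had mean ratios of 0.07 and 0.26. Around the second, the adjacent unnamed clone had -0.04 and the adjacent clone of CG1999 had -0.14. The 24 nearest clones by spot number had a median of 0.05 around the first clone and of -0.04 around the second.

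Averaged over the dye orientations, the first clone had -2.33 ± 0.30 (SD, n = 3), or 5.03-fold higher in Kc167. The second clone had -4.61 ± 0.26 (SD, n = 3), or 24.3-fold. With natural logarithms these folds would be 10.3 and 100.0. The mean of the clones, which stands for the gene, was -3.18, -3.68 and -3.55 in replicates 1, 2 and 3. This gave -3.47 ± 0.26 (SD, n = 3), or 11.1-fold, and 32.1-fold with natural logarithms. The SD of zfh2 was large among the 7201 features with values on all 6 arrays, at position 411 from the top, against a median SD of 0.11.

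The second clone was the most negative of all clones on each of the 6 arrays, among 7855 to 8446 clones with a value. The next clone on the same array was at -3.82, -3.78 and -3.81 with Kc167 in Cy5, and at -3.62, -3.73 and -4.02 on the flipped arrays. The first clone stood at positions 57, 23 and 89 with Kc167 in Cy5, and at 38, 10 and 14 on the flipped arrays. By the mean over replicates, the second clone came first and the first clone 28th among 7581 complete clones. The clone that followed the second was unnamed, at spots 11213 and 11214, with -3.71 ± 0.17 (SD, n = 3).

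As the mean of its clones, zfh2 was the most negative of 2216 named genes on all 6 arrays. Among all 7201 features, unnamed clones included, it stood at positions 5, 4 and 6 with Kc167 in Cy5 and at 5, 1 and 2 on the flipped arrays. By the mean it was 4th. The 3 features before it were unnamed clones with -3.71, -3.54 and -3.48, all within the SD of zfh2. If zfh2 were represented by its first clone alone, it would stand at position 9 among the named genes instead of 1.

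**Figure D2:**
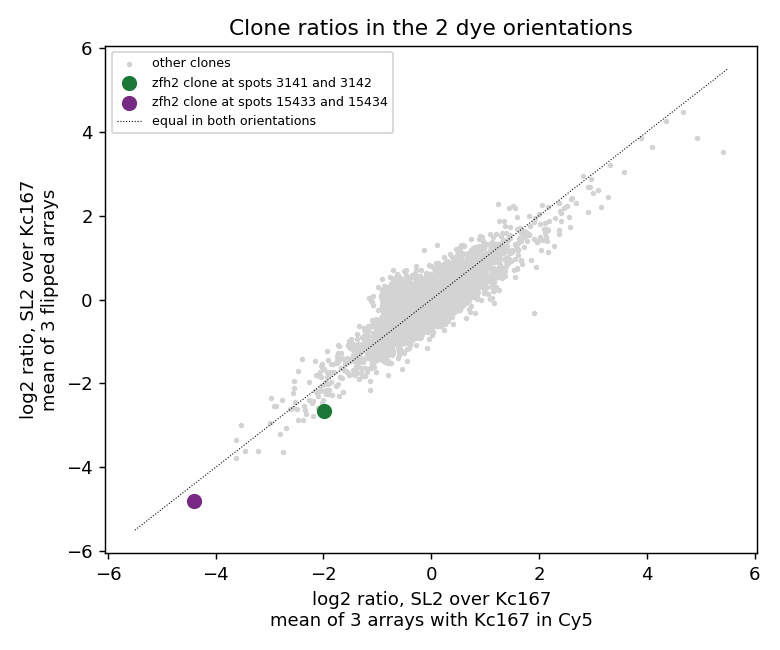
Mean log2 ratio of SL2 over Kc167 on the 3 arrays with Kc167 in Cy5 (horizontal axis) and that over the 3 flipped ones (vertical axis) for the 7581 clones with values on all 6 arrays (grey points). The zfh2 clones are coloured, and the dotted line marks equal ratios. The second clone, at -4.40 and -4.81, is the most negative on both axes, and the first clone, at -1.99 and -2.67, lies below the line.

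The difference between the clones was steady in comparison with its size. The first clone lay above the second by 2.44, 2.02 and 2.74 where Kc167 carried Cy5, and by 2.07, 2.10 and 2.26 on the flipped arrays. The mean difference was 2.27 ± 0.22 (SD, n = 3), so the fold difference of the second clone was 4.84 times that of the first. Of 252 genes with several complete clones, only larp and CG14995 had a wider range between their clones, and the median range was 0.28. The 11 genes with a mean of at least 1 in size, zfh2 included, had a median range of 0.78. Their ranges went down to 0.043, and among them only CG14995 had a wider range than zfh2. In all 11 the clones had the same sign, which the choice of genes by a large mean makes likely in itself. The annotation used here does not place the clones within the gene, for which the RefSeq table lists 3 transcripts. Which transcript or which part of the gene each clone reports was therefore not tested, nor was hybridisation by other transcripts.

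**Figure D3:**
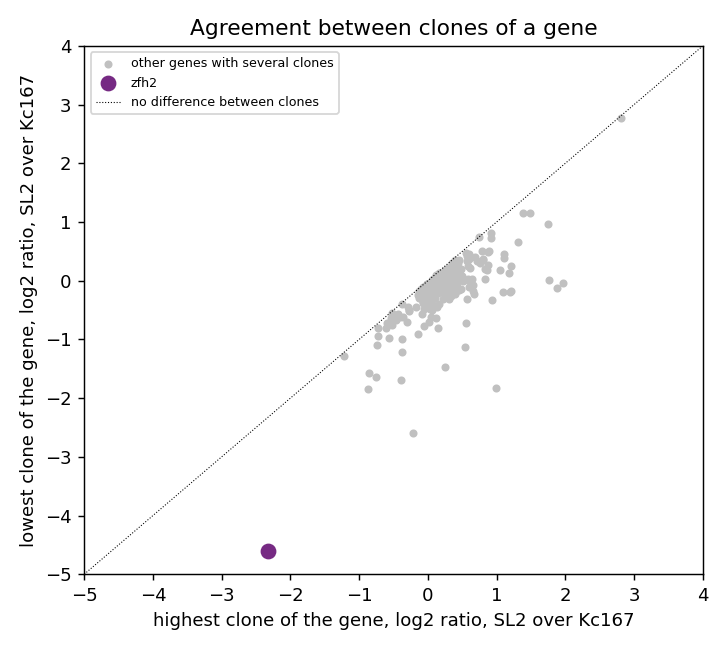
Highest (horizontal axis) and lowest (vertical axis) mean log2 ratio of SL2 over Kc167 among the clones of each of the 252 genes with several complete clones. Each grey point is a gene, zfh2 is purple, and the dotted line marks equal clones. The zfh2 point, at -2.33 and -4.61, lies apart from the other genes at the lower left.

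The dye orientation was not used to choose the gene, so its effect was tested. The ratio with Kc167 in Cy5 minus the ratio on the flipped array of the same number was 0.05, 0.73 and 0.86 in replicates 1, 2 and 3. The flipped arrays had a mean of -3.74 ± 0.47, and the others one of -3.19 ± 0.10 (SD, n = 3 each). The difference of 0.55 ± 0.17 (SE) did not pass limma's test over all features (adjusted p = 0.079; unadjusted p = 0.012). All 3 pairs had the same sign. The alternatives for the gene gave limma adjusted p-values from 0.060 to 0.34, so none passed. The size depended on the scaling of the arrays, with 0.99 when they were centred and scaled (adjusted p = 0.060) and 0.32 after quantile normalisation (adjusted p = 0.16). By this test 681 features, or 9.46%, differed between the orientations. In a fit with each clone as a feature, where 9.51% of clones differed, the first clone passed with 0.68 ± 0.17 (SE; limma adjusted p = 0.040). The second clone had 0.42 ± 0.18 and did not pass (adjusted p = 0.17). Whether the clones differ in their orientation effect was not tested. Of 48 other features at -2 or below, 35 (72.9%) were more negative on the flipped arrays, with a median difference of 0.18. At -1 or below, 154 of 254 (60.6%) were, with a median difference of 0.12. The difference of 0.55 for zfh2 was larger than both medians. The share over all features was not counted, so these shares have no background to be read against. Taken without sign, the median difference over all 7201 features was 0.21, and zfh2 stood at position 751 from the largest. Without the flipped array of replicate 1, the mean ratio of zfh2 was -3.46. Replicate 1 was then its array with Kc167 in Cy5 alone, so the dye did not cancel in that mean.

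The genes next in order on the Kc167 side had smaller ratios on average. The gene rgn followed zfh2 with -3.01 ± 0.10 (SD, n = 3). Its ratios were -2.87, -2.61 and -2.96 with Kc167 in Cy5 and -3.13, -3.23 and -3.28 on the flipped arrays. The ranges of rgn and zfh2 over arrays overlapped, although zfh2 was the more negative on each of the 6. After rgn came CG10970 (-2.67 ± 0.27), GstE2 (-2.62 ± 0.17), Fie (-2.62 ± 0.09) and CG3168 (-2.54 ± 0.27), which do not differ from one another beyond their SDs. GstE2 encodes a glutathione S-transferase, an enzyme of detoxification. These 5 genes were also the most like zfh2 by the root mean square difference over the 6 arrays. That difference was 0.54 for rgn, 0.89 for GstE2, 0.93 for Fie, 0.96 for CG3168 and 0.999 for CG10970, on the log2 scale. Since the arrays repeat 1 comparison, this likeness reflects the size of the ratio.

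Other homeodomain genes showed no ratio near that of zfh2. Of 102 listed homeodomain genes besides zfh2, 9 were on the arrays under a name and 6 had complete values. Of these 6, 1 passed limma's test on the Kc167 side, 1 passed on the SL2 side and 4 did not pass, while 60.2% of all features passed. Their median was -0.12, against -0.02 over all features. Dfd, a Hox gene of head segments, had -0.42 ± 0.07, on the Kc167 side (SE, n = 3; limma adjusted p = 0.00046), and its 6 arrays ran from -0.62 to -0.23. The engrailed relative inv was on the SL2 side with 0.40 ± 0.07 (limma adjusted p = 0.00054), and its arrays ran from 0.16 to 0.63. The cut gene ct (-0.12 ± 0.08), the Pax gene prd (-0.13 ± 0.09), the neural factor pros (-0.11 ± 0.07) and the eye selector ey (0.13 ± 0.08) did not pass. The clones of ct disagreed: the clone at spot 8653 passed when fitted alone (-0.28; limma adjusted p = 0.0065), and the clone at spot 16775 did not (0.042; adjusted p = 0.72). Without replicate 1, ct passed (-0.22, limma adjusted p = 0.042). Without replicate 3, ey passed (0.24, limma adjusted p = 0.043), as it did in the flipped arrays alone (0.34, adjusted p = 0.011). The fit without replicate 3 gave far smaller p-values to large ratios (rgn, limma adjusted p = 6.8e-19 against 1.6e-09 in the main fit). Its calls are therefore not fully comparable with those of the main fit. The clones of al, OdsH and onecut lacked values on 1 array each and were not tested, and their ratios lay between -0.44 and 0.32. The related gene zfh1 was not measured under a name.

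Genes from settings in which zfh2 is known were sparse on the arrays, and 60.2% of all features passed the same test. Of 3 tested genes of wing hinge and leg patterning, 1 passed; of 4 from intestinal progenitors, 1; of 2 of apoptosis, 1; and of 1 hemocyte factor, 1. These numbers are too small to set against that share. In wing hinge and leg patterning, tio, which encodes a zinc finger factor related to teashirt, had -0.39 ± 0.07, on the Kc167 side (SE, n = 3; limma adjusted p = 0.0012). The pair-rule gene odd had -0.04 ± 0.07, and dpp, which encodes a BMP-type ligand, had 0.20 ± 0.09; neither passed. Without replicate 2, dpp passed (0.33, limma adjusted p = 0.0024). In that fit the p-values followed the size of the ratio alone and not each gene's own spread. Its calls are therefore not comparable with those of the main fit. The clones of al and ds lacked complete values. Among the intestinal progenitor genes, puc, which encodes a phosphatase that restrains JNK signalling, was on the SL2 side with 0.56 ± 0.07. Its ratio was 0.15 on the flipped arrays and 0.97 on the others, a difference that passed limma's test (adjusted p = 0.026). The kinase gene hep (0.20 ± 0.08), GATAe (0.0015 ± 0.06) and pros did not pass. Without the flipped array of replicate 1, hep had 0.24 and passed narrowly (limma adjusted p = 0.0499). Replicate 1 was then its array with Kc167 in Cy5 alone, so the dye did not cancel. In that orientation hep had 0.42, and on the flipped arrays it had -0.017. It also passed without replicate 2 (0.28, limma adjusted p = 0.012), with the same limit as dpp. Of the apoptosis genes, p53 was on the Kc167 side with -1.38 ± 0.07, and the TNF receptor gene grnd had 0.12 ± 0.07 and did not pass. The hemocyte factor gene jumu, of the forkhead family, had -0.25 ± 0.07 and passed (limma adjusted p = 0.0089); without the flipped array of replicate 1 it had -0.14 (adjusted p = 0.15). The factor gene sens lacked a value on 1 array. Both genes of the monoamine and neuropeptide list on the arrays, FMRFa and Kr, lacked complete values.

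**Figure D4:**
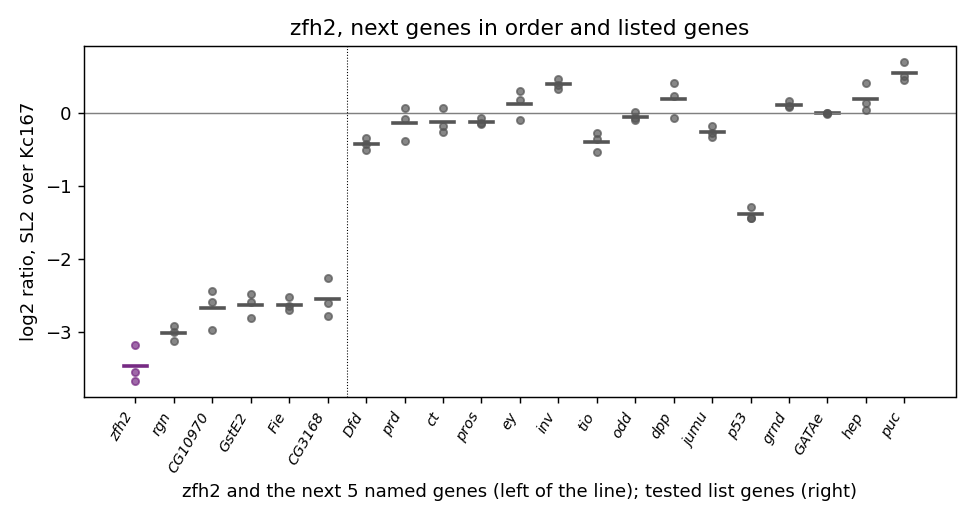
Log2 ratio of SL2 over Kc167 (vertical axis) for zfh2 and the next 5 named genes in order (left of the dotted line) and for the tested genes of the homeodomain, wing hinge and leg, hemocyte factor, apoptosis and intestinal progenitor lists (right). Points are the 3 replicates and bars their mean. The listed genes lie between -1.38 and 0.56, and zfh2 (purple) is at -3.47.

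Blood cell and neural markers were checked because the labels name blood-like lines and zfh2 is known from neurons. Ratios alone cannot show whether a marker is present in either line, and 60.2% of all features passed, divided into 31.8% with negative and 28.4% with positive ratios. Of 12 hemocyte markers, 5 were on the arrays and 4 were tested, with Pxn (1.65) and NimC1 (0.80) on the SL2 side and Pvr (-0.43) and Ppn (-1.14) on the Kc167 side. Of 6 neuron and glia markers, 3 were measured: moody (0.99) and nSyb (0.27) were on the SL2 side and nrv2 (-0.67) on the Kc167 side. Without replicate 3, nSyb did not pass (0.23, limma adjusted p = 0.053), in a fit with the limit given for ey. With Kc167 in Cy5 alone, neither nSyb (0.19, limma adjusted p = 0.11) nor Pvr (-0.30, adjusted p = 0.055) passed. Both lists thus had members on both sides. The part of other cell properties in the ratio of zfh2 was not tested.

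The gene zfh2 lies on the small chromosome 4, where RefSeq (Release 6 plus ISO1 MT) lists 80 protein-coding genes. Besides zfh2, 19 genes of this chromosome were on the arrays under a name and 15 had complete values. Of the 15, 5 were on the Kc167 side, 2 on the SL2 side and 8 did not pass, which is 46.7% called against 60.2% of all features (31.8% on the Kc167 side and 28.4% on the SL2 side). Their median was -0.06. By the mean over replicates, none of the 15 reached -1. In the flipped arrays alone, Taf3 had -1.09 and Tdg had -1.05.

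The 3 tested genes nearest to zfh2 in gene order were the 3 most negative of the 15. Taf3, which encodes a subunit of the general transcription factor TFIID, lies 3 coding genes before zfh2. It had -0.84, -0.90 and -0.82 with Kc167 in Cy5 and -1.46, -0.85 and -0.97 on the flipped arrays. All 6 arrays were negative, with a mean of -0.97 ± 0.08 (SE, n = 3; 1.96-fold; limma adjusted p = 3.1e-06).

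Tdg, which encodes a thymine DNA glycosylase, is the next coding gene after zfh2, and the spans of both genes overlap in the RefSeq table. It had -0.71, -0.41 and -0.74 with Kc167 in Cy5 and -1.33, -0.79 and -1.03 on the flipped arrays. The mean was -0.84 ± 0.08 (SE, n = 3; 1.79-fold; limma adjusted p = 1.9e-05), again with all 6 arrays negative. Strand is not known for these clones, and transcripts from the overlap were not told apart.

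Ephrin, which encodes the membrane-bound ligand of the Eph receptor, lies 4 coding genes after zfh2. It had -0.81, -1.24 and -0.64 with Kc167 in Cy5 and -0.68, -0.59 and -1.001 on the flipped arrays. The mean was -0.83 ± 0.07 (SE, n = 3; 1.77-fold; limma adjusted p = 4.5e-06). Across all alternatives, the ratio of Taf3 ran from -1.09 to -0.85, that of Tdg from -1.05 to -0.62 and that of Ephrin from -0.90 to -0.76, and all 3 passed throughout.

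The ratios of the next tested genes outward were nearer to 0. CG1909, 5 coding genes after zfh2, had -0.06 ± 0.08 and dati, which encodes a zinc finger factor and lies 6 before, had -0.04 ± 0.08; neither passed. In the flipped arrays alone CG1909 had -0.30 and passed (limma adjusted p = 0.022), and in the others it had 0.18 and did not (adjusted p = 0.18). The clone of onecut, 6 after, had no value on 1 array and ran from -0.44 to 0.05 on the other 5. Of the 12 tested genes more than 4 coding genes away, 2 were on the Kc167 side and 2 on the SL2 side, against 60.2% of all features called, and their ratios ran from -0.36 to 0.36. The calsyntenin gene Cals (-0.36 ± 0.09) and the synaptic gene unc-13 (-0.22 ± 0.08) were on the Kc167 side. In the flipped arrays alone, Cals narrowly did not pass (-0.39, limma adjusted p = 0.0504). Sox102F, which encodes an HMG-box factor (0.36 ± 0.07), and Hcf, the host cell factor gene (0.27 ± 0.08), were on the SL2 side. The calls of unc-13 (-0.20; limma adjusted p = 0.057) and Hcf (0.23; adjusted p = 0.072) were lost without the flipped array of replicate 1, where PMCA passed (-0.20; adjusted p = 0.034). That of unc-13 was also lost without replicate 1 (-0.13, limma adjusted p = 0.18) and that of Hcf without replicate 3 (0.16, adjusted p = 0.17). The calls also depended on the dye orientation. With Kc167 in Cy5 alone, unc-13 did not pass (-0.10, limma adjusted p = 0.44) and PMCA passed (-0.31, adjusted p = 0.020). In the flipped arrays alone, Hcf did not pass (0.17, limma adjusted p = 0.16). The other 8 were PMCA, ey, MED26, Gyf, Zyx, apolpp, CG1909 and dati, between -0.12 and 0.13. NfI, onecut, fd102C and mGluR had incomplete values and were not tested. The order by distance was seen in the data and not tested. CaMKI, Asator, CG33941, Pur-alpha and ND-49, the other coding genes within 4 of zfh2, were not measured under a name.

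**Figure D5:**
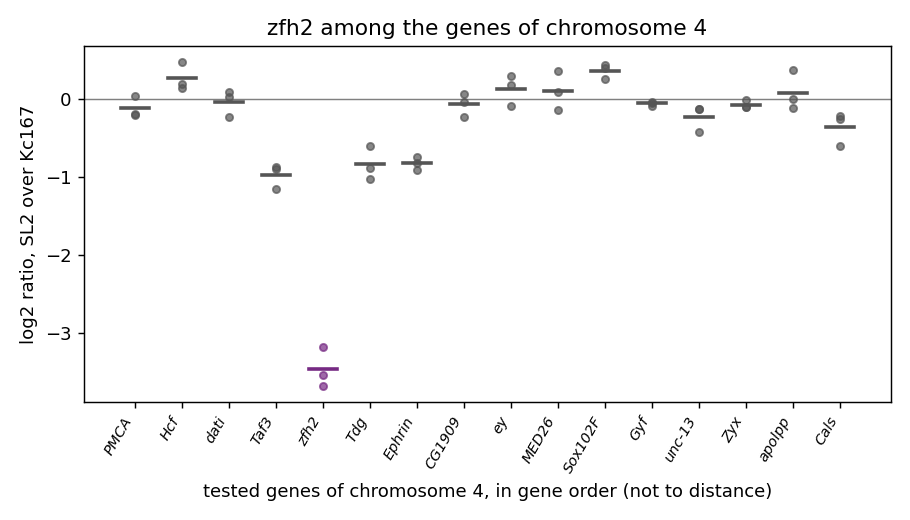
Log2 ratio of SL2 over Kc167 (vertical axis) for zfh2 (purple) and the 15 other tested genes of chromosome 4 in gene order (horizontal axis, not to distance). Points are the 3 replicates and bars their mean. Taf3, Tdg and Ephrin, beside zfh2, lie at -0.97, -0.84 and -0.83, and the other 12 between -0.36 and 0.36.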

How the data were processed

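Values for 6 arrays were the log ratios per spot that the authors deposited, used as log2; per the labels they were derived from normalised data. Slides were quantified in QuantArray without background subtraction, per the labels. How they were normalised is not given in the sources used here. Both spots of a clone were averaged, then the clones of a gene. Clones with values on all 6 arrays (7581 of 8448) gave 7201 features. Of 16896 spots, 5666 had 1 symbol, all matched by Entrez identifier to RefSeq; 152 had several and 11078 none here.

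Same-numbered arrays of both dye orientations were averaged. With limma 3.58.1 in R 4.3.3 (lmFit, eBayes), the mean of 3 replicates was compared with 0 in a two-sided test, and p-values were adjusted over all features after Benjamini and Hochberg, with a threshold of 0.05. Orientation differences within pairs were tested likewise. SE is limma's moderated standard error. In simulated data of 7201 features for the comparison between the lines, 54% of features changed by 0.25 (log2) and 100% of those changed by 0.5 were recovered. Only 50 features were changed at each size, a far smaller share than the 60.2% called in the data. The noise was drawn with limma's moderated variances. These rates hold for that setting only.

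Named were zfh2 with its clones and spots, every measured gene of the lists and of chromosome 4, the 5 genes most like zfh2 and the 5 next in order. The gene and the lists were chosen with earlier results of these data known. Genes beside the spots by spot number, genes whose clones differ more than those of zfh2, and genes named as not measured fall outside this rule. They were chosen after values were seen. Alternatives covered array scaling, the filter, the variance model, the block, each orientation, single clones and spots, and each replicate left out. Leaving out the flipped array of replicate 1 and reading values as natural logarithms were added after seeing the data. In the former, replicate 1 was its array with Kc167 in Cy5 alone, so the dye orientation did not cancel in the mean. Figures were drawn with matplotlib 3.10.9.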

Additional observations from a re-analysis of the deposited data

Results flagged for a closer look

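For 3 results the dye orientations differed by limma's test. The first zfh2 clone had a ratio higher by 0.68 with Kc167 in Cy5 than on the flipped arrays (adjusted p = 0.040), being negative in both. The ratio of puc was higher by 0.83 (adjusted p = 0.026); in the flipped arrays alone its ratio between the lines, 0.15, did not pass. The ratio of Pxn, the peroxidasin gene, was higher by 1.02 (adjusted p = 0.015), with 2.16 and 1.14 in the 2 orientations.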

How the results depend on the processing

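The zfh2 ratio stayed negative under all alternatives. It was -3.74 in the flipped arrays alone and -3.19 in the others alone, and the first clone then had -2.67 and -1.99. Single clones gave -2.33 and -4.61, and the orientation difference of the first clone, 0.68, passed where that of the gene did not. Read as natural logarithms, the gene had -5.003 and its clones -3.36 and -6.64 on the log2 scale. The orientation difference of zfh2 was 0.99 with arrays centred and scaled and 0.32 after quantile normalisation. With the replicate number as a block, the orientation difference kept adjusted p = 0.079, and 4277 features passed against 4332. The labels do not say that a number marks a shared culture or day, and same-numbered arrays did not deviate together from their orientation means (correlations of -0.07, 0.11 and -0.10 across features). Without a block or pairing, that adjusted p was 0.099 and 4375 features passed. The block changed the call of 1 named gene, dpp, which then passed (adjusted p = 0.024). Leaving out each replicate gave -3.61 to -3.36 for zfh2, 3809 to 4014 features called, and 6 to 7 genes of chromosome 4. The count of 4014 came from the fit without replicate 2, where p-values followed the size of the ratio alone. The sign turned for genes that had not passed: with a replicate or the flipped array of replicate 1 left out, dati ran from -0.105 to 0.061, MED26 from -0.025 to 0.227, apolpp from -0.058 to 0.184, CG1909 from -0.129 to 0.036 and GATAe from -0.0032 to 0.0072. With Kc167 in Cy5 alone, CG1909 had 0.18, ey -0.079 and Gyf 0.047. In the flipped arrays alone, apolpp had -0.087, dati 0.11, GATAe -0.057, hep -0.017 and PMCA 0.073. GATAe had -0.0037 after quantile normalisation, and the ct clone at spot 16775 had 0.042. The causes were not tested.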
